A study of Saccharomyces cerevisiae with 6 samples.

Results

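The genes described here encode the enzymes that add acetyl groups to histones, the enzymes that take them off, and subunits of the complexes in which these enzymes work. A fixed list of 43 genes of Saccharomyces cerevisiae was matched by gene name to the rows of the authors' deposited table, and the longest gene model was kept for each gene. By name 39 were found. A further 3, EAF1, HDA2 and HDA3, stand in the table under the names VID21, PLO2 and PLO1 and were found by systematic name. YNG2 is not analysed here. The 42 genes measured, 23 of acetyltransferase complexes and 19 of deacetylase and sirtuin complexes, are set against 5347 genes with a tested model, a number that leaves out the deleted ACS1 and ACS2.

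RNA came from aerobic chemostat cultures limited by glucose, with 3 libraries from independent cultures of each strain. CEN.PK113-7D (ACS1 ACS2) is the reference. IMY104 has deletions of both acetyl-CoA synthetase genes (acs1Δ acs2Δ) and carries the centromeric plasmid pUDC140, from which it expresses the Enterococcus faecalis pyruvate dehydrogenase genes pdhA, pdhB, aceF and lpd and the lipoylation genes lplA and lplA2. Both strains were grown on synthetic medium with 7.5 g/L glucose, at pH 5.0 and 30 °C, with 0.10 of the volume renewed per h, and the medium of both contained 500 ng/mL lipoic acid. In the table the pooled libraries of IMY104 also bear another CEN.PK strain's name, and what else may differ between the strains cannot be told apart from the listed alleles. The authors' deposited table matched the labels, with ACS1 at 1094 FPKM in CEN.PK113-7D against 0.882 in IMY104 and ACS2 at 494 against 0.179. The 7 models on the plasmid had 344 to 10685 FPKM in IMY104 and 0.218 to 2.74 in the reference. It gives 1 combined level a strain in FPKM (sequenced fragments, corrected for model length and library size) and the authors' own Cuffdiff test, so there is no value per culture, no SD and no known depth.

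Histone acetyltransferases move the acetyl group of acetyl-CoA to lysines of the histone tails and cores, which loosens the hold of histones on DNA and gives docking sites to other proteins. In yeast this acetyl-CoA belongs to the nuclear and cytosolic pool, which the acetyl-CoA synthetases normally supply. Deacetylases of the Rpd3 and Hda1 kind remove the group with the help of zinc, and sirtuins remove it while consuming NAD. The comparison of the strains asks how RNA levels differ when that pool comes from a bacterial pyruvate dehydrogenase.

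Most of these genes differed little in RNA level between the strains. Of the 42 measured, 2 rose in IMY104, YNG1 and HDA1, and 1 fell, SIR4, at the authors' q under 0.05, while 39 were not called. That is 7.14% of the genes, against 22.6% of all models tested. Higher calls made up 11.6% of all models and lower calls 11%. In absolute log2 fold change the median of the 42 genes was 0.064, against 0.12 over all genes tested, and 57.1% of them had a change of less than 0.1 on that scale, against 42.3% of all genes. The largest difference in either direction was 1.45-fold, for SIR4. At an unadjusted p under 0.05 there were 6 genes, the 3 called ones with HDA2, SPT8 and SAS2, against 32.2% of all models. With the authors' statistic read as a standard normal deviate, 2 of the 42 were called, YNG1 and SIR4, against 14.9% of all models. These are values of bulk RNA, in which fewer cells with the RNA and less RNA per cell cannot be told apart.

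**Figure D1:**
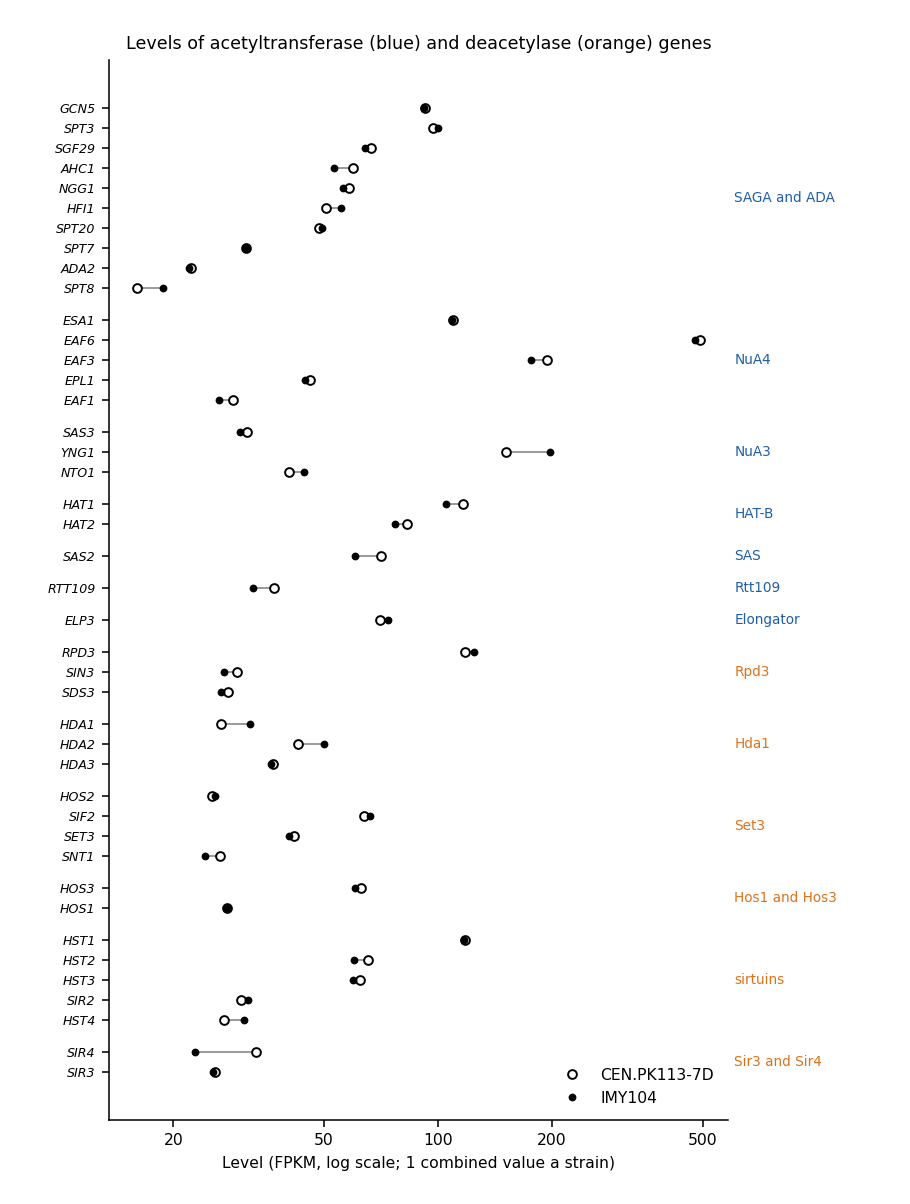
Level in FPKM (log axis) of each of the 42 genes in CEN.PK113-7D (open circles) and IMY104 (filled circles), grouped by complex, with acetyltransferase complexes named in blue and deacetylase complexes in orange; each circle is the authors' combined value of a strain, with no error. The circles of most genes lie close together, and the widest gaps are those of YNG1 (151 to 197 FPKM) and SIR4 (33.1 to 22.9 FPKM).

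The NuA3 complex, which acetylates histone H3, held the gene that rose most. YNG1, a subunit with a PHD finger that docks on methylated histone H3, had 151 FPKM in CEN.PK113-7D against 197 in IMY104 according to the authors' deposited table. This was a 1.30-fold rise (log2 fold change 0.38, statistic 3.18, Cuffdiff p = 0.0001 and q = 0.00087, the authors' deposited table). The authors' p implies a standard error of about 0.098 on the log2 scale and an interval of 0.19 to 0.57, if the change is taken as normally distributed. The other NuA3 genes were not called. SAS3, the catalytic subunit, was at 31.3 and 30.0 FPKM, and the scaffold gene NTO1 at 40.4 and 44.3 FPKM, in CEN.PK113-7D and IMY104 in turn, per the authors' deposited table. YNG1 stood above both in level in each strain.

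YNG1 (YOR064C) lies on chromosome 15 from 446210 to 446869 of the authors' assembly, and faces CYT1, the gene of cytochrome c1, from which it is divided by 700 bases in the R64 genome. These neighbours were picked out after their values were seen. Both genes of the pair rose, CYT1 from 944 to 1151 FPKM (log2 fold change 0.29, Cuffdiff q = 0.0237), as listed by the authors' deposited table. MSA1, the next gene past CYT1, rose from 13.7 to 17.6 FPKM (0.37 on the log2 scale, Cuffdiff q = 0.0041 by the authors' deposited table). RPL3, on the other side of YNG1, had a change of 0.0089 and was not called (the authors' deposited table). The 10 tested models on each side of YNG1 had a median change of 0.0041 in log2, with 4 called higher and 2 lower. The start of YNG1 is shown because it was the strongest rise among these genes. The window holds 250 bases before the coding start and 50 after it, from RefSeq R64, chrXV:446689-446988, minus strand, 5′ to 3′, with capitals on the start codon and on matches to the motifs described further on.
YNG1: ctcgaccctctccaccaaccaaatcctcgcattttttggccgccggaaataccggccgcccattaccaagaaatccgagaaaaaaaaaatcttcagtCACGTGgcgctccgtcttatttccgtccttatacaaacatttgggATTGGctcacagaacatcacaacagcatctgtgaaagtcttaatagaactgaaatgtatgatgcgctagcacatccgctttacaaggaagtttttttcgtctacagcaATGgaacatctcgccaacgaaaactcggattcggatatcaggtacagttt

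SAGA and ADA, which share the H3 acetyltransferase Gcn5 and activate a large set of inducible genes, were measured through 10 genes and none was called by Cuffdiff, with SPT8 the one gene at an unadjusted p under 0.05. GCN5 itself stood at 92.3 and 91.6 FPKM in CEN.PK113-7D and IMY104, per the authors' deposited table, a log2 difference of -0.011. In its direct module, NGG1 (also called ADA3) was at 58.1 and 56.2 FPKM and SGF29, a reader of methylated H3, at 66.35 and 64.04, with log2 fold changes of -0.049 and -0.051 (the authors' deposited table). For the SAGA core, the authors' deposited table put SPT7 at 31.1 and 31.2 FPKM, SPT20 at 48.6 and 49.3, SPT3 at 97.02 and 99.79 and HFI1 at 50.6 and 55.5. The largest log2 fold change of these 4 was the 0.13 of HFI1, and none was called. SPT8, which with Spt3 hands over the TATA-binding protein, was the lowest of all 42 genes in the reference, at 16.1 FPKM, and had 18.7 in IMY104 (the authors' deposited table). Its log2 fold change of 0.22 had an interval of 0.019 to 0.42 from the authors' p and did not pass adjustment (Cuffdiff q = 0.112, authors' deposited table). AHC1, which belongs to ADA and not to SAGA, had a log2 fold change of -0.17 and was not called (59.8 and 53.2 FPKM, authors' deposited table). ADA2 stimulates Gcn5, and its name also stands on a model of 624 bases listed on chromosome 0, whose 21.4 and 22.1 FPKM by the authors' deposited table are close to those of the full model on chromosome 4 (22.2 and 22.0 FPKM). How reads that match both models were counted is not given in the sources used here.

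NuA4, which acetylates histones H4 and H2A and is needed for viability through its enzyme Esa1, had 5 genes measured, all with log2 fold changes below 0 and none called by Cuffdiff or at an unadjusted p under 0.05. Of 6 further NuA4 subunits measured, 4 had log2 fold changes above 0 and 2 below, and none was called. ESA1 was at 110 and 109 FPKM by the authors' deposited table, CEN.PK113-7D first. The platform gene EAF1 was at 28.7 and 26.4 FPKM, EPL1, which ties Esa1 to nucleosomes, at 46.1 and 44.5, and EAF3, a chromodomain protein shared with an Rpd3 complex, at 194 and 176 (the authors' deposited table). Their log2 fold changes were -0.12, -0.048 and -0.14. EAF6, a small subunit of NuA4 and NuA3, had the highest level of all 42 genes, with 491 FPKM in CEN.PK113-7D against 478 in IMY104 (the authors' deposited table). It rests on a model of 342 bases, the shortest of the 42. Its log2 fold change of -0.040 became 0.036 under quantile normalization, and the -0.015 of ESA1 became -0.00054. The levels of the NuA4 genes thus spanned more than those of any deacetylase complex, from 28.7 to 491 FPKM in the reference.

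The remaining acetyltransferases act outside these complexes, and none was called. HAT1, which acetylates newly made histone H4, was at 116 and 105 FPKM and its partner HAT2 at 82.6 and 77.0 FPKM in CEN.PK113-7D and IMY104 of the authors' deposited table. RTT109, which acetylates lysines of new histone H3 together with the chaperone Asf1, was at 36.9 and 32.5 FPKM there (log2 fold change -0.18, Cuffdiff q = 0.197, authors' deposited table). SAS2, which acetylates a lysine of H4 near the boundaries of silent chromatin, had the lowest change of the 23 genes, with 70.9 FPKM in the reference against 60.5 (the authors' deposited table). The change of -0.23 (statistic -1.73, p = 0.0179) had an interval of -0.42 to -0.040 from the authors' p and was not called (Cuffdiff q = 0.0714, authors' deposited table). ELP3, the catalytic subunit of Elongator, whose best known substrate is transfer RNA, was at 70.1 and 74.0 FPKM and was not called (the authors' deposited table). Of the 7 catalytic genes, 6 had log2 fold changes below 0, between -0.23 and -0.011, and ELP3 was above it with 0.078. None of the 7 was called by Cuffdiff, and SAS2 was the one below an unadjusted p of 0.05.

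**Figure D2:**
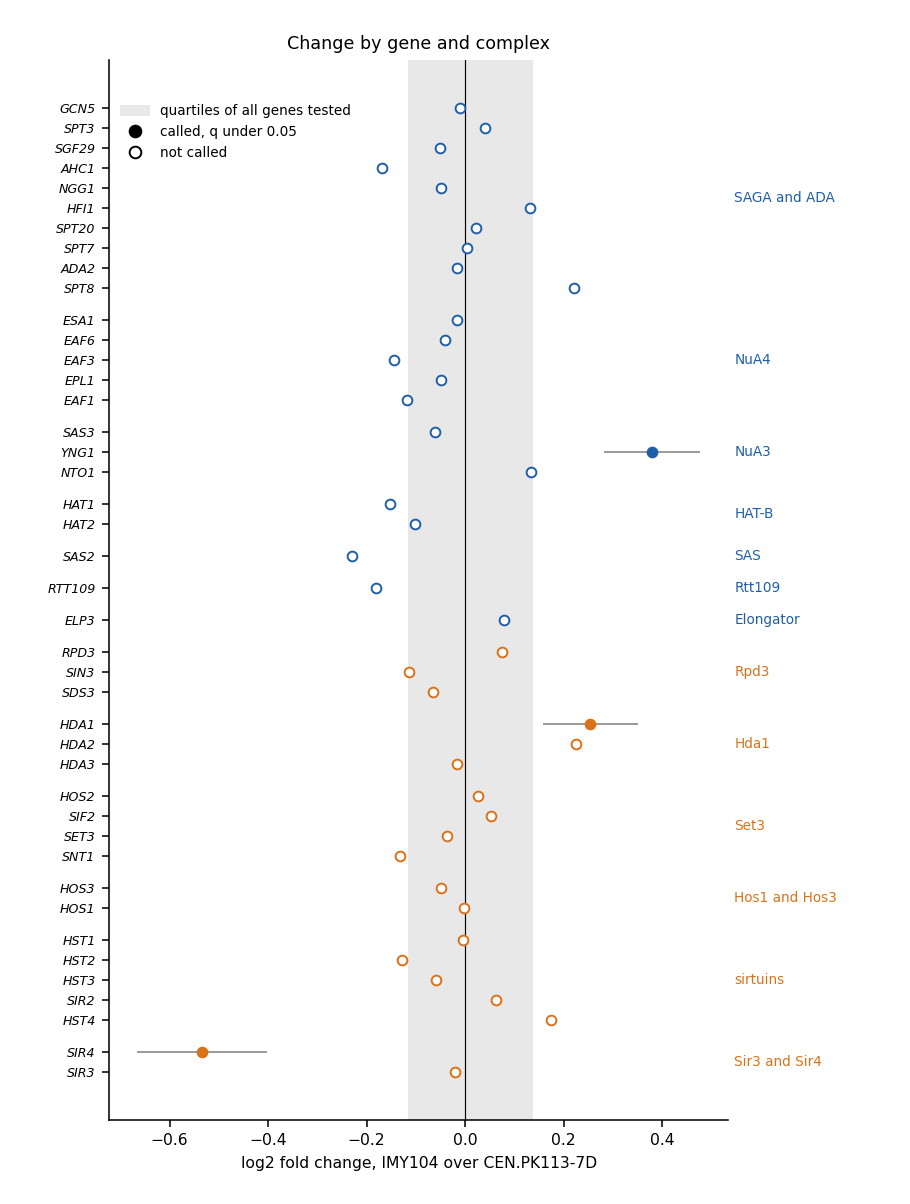
log2 ratio of IMY104 to CEN.PK113-7D for each gene, grouped by complex; filled circles are called at the authors' q under 0.05, bars on them are 1 standard error implied by the authors' p (for SIR4 an upper bound), and the grey band holds the middle part of all genes tested, from -0.11 to 0.14. YNG1 and HDA1 are filled to the right of the band and SIR4 to the left.

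The Hda1 complex, which deacetylates histones H3 and H2B and represses genes together with Tup1, held the deacetylase that rose. HDA1, its catalytic subunit, went from 26.7 FPKM in CEN.PK113-7D to 31.8 in IMY104 (the authors' deposited table). The 1.19-fold rise (log2 fold change 0.25, statistic 1.71, p = 0.0085, implied standard error 0.097) was close to the threshold, with a Cuffdiff q of 0.0403 by the authors' deposited table. It was no longer called at q under 0.01, nor when the authors' statistic was read as a normal deviate (q = 0.314). HDA2 was at 42.7 FPKM in CEN.PK113-7D and 49.9 in the other strain (the authors' deposited table). Its log2 fold change of 0.22 (interval 0.045 to 0.40 from the authors' p, statistic 1.51) was not called. The Cuffdiff p was 0.0145 and the adjusted q 0.0604 by the authors' deposited table. HDA3, the third subunit, was at 36.6 and 36.2 FPKM by the authors' deposited table. HDA1 (YNL021W, chromosome 14, 587214 to 589334 in the authors' assembly) faces RCM1 across 327 bases, which was chosen after its value was seen and had -0.012 in log2, not called (the authors' deposited table). Its 20 neighbouring models had a median log2 fold change of -0.0084. The start of HDA1 is printed as the other rise, from R64, chrXIV:592977-593276, plus strand, 5′ to 3′, with the start codon in capitals and no match to the motifs searched.
HDA1: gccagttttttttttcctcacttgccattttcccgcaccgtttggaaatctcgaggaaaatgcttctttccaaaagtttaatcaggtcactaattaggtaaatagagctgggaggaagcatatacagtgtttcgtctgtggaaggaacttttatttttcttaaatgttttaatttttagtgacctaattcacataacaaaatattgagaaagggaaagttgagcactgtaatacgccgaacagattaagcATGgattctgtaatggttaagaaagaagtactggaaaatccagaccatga

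The Rpd3 complexes, the main deacetylases of genes repressed through Ume6 and of transcribed bodies of genes, had 3 genes measured and none called by Cuffdiff or at an unadjusted p under 0.05. RPD3, the most abundant deacetylase gene at 118 and 124 FPKM, exceeded its scaffold SIN3 (29.4 and 27.2 FPKM) and the subunit gene SDS3 (28.0 and 26.7 FPKM) in both strains of the authors' deposited table. In the Set3 complex, which acts with Hos2 and Hst1 in the 5′ part of transcribed genes, HOS2 was at 25.3 and 25.8, SET3 at 41.5 and 40.5, SIF2 at 63.7 and 66.0 and SNT1 at 26.5 and 24.2 FPKM by the authors' deposited table. None of these 4 was called, and none had an unadjusted p under 0.05. HOS1, the deacetylase of the cohesin subunit Smc3, showed the smallest difference of all 42 genes, at 27.74 against 27.71 FPKM by the authors' deposited table. HOS3, which works without partners in the test tube, was at 62.5 and 60.4 FPKM by the authors' deposited table.

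Sirtuin genes did not pass the test either. SIR2, the sirtuin of silent chromatin at telomeres, mating loci and ribosomal DNA, was at 30.1 FPKM in CEN.PK113-7D against 31.4 in IMY104 per the authors' deposited table. HST1, its closest relative and a repressor of sporulation and NAD synthesis genes, was at 117.5 and 117.0 FPKM by the authors' deposited table, which makes it the highest sirtuin in both strains. HST2, a largely cytosolic sirtuin, was at 65.5 and 59.9 FPKM by the authors' deposited table. HST3 and HST4, which deacetylate the H3 lysine that Rtt109 acetylates, had 62.3 and 59.8 FPKM and 27.2 and 30.7 FPKM by the authors' deposited table. From high to low the order was HST1, HST2, HST3, SIR2 and HST4 in both strains, and neighbours in it cannot be ranked beyond error without values per culture. The log2 fold changes of the 5 ran from -0.13 for HST2 to 0.17 for HST4, with none called by Cuffdiff or at an unadjusted p under 0.05.

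SIR4 was the one gene of the 42 that fell. It encodes the scaffold that carries Sir2 and Sir3 along silent chromatin, and it had 33.1 FPKM in CEN.PK113-7D against 22.9 in IMY104 (the authors' deposited table). That is 1.45-fold lower (log2 fold change -0.53, statistic -3.41), at the smallest p the authors' test gave, 5e-05 (Cuffdiff q = 0.00047, authors' deposited table). The standard error implied by the authors' p was at most 0.13. Read as a normal deviate, the statistic implies a larger one and a q of 0.0063. SIR3, its partner, was at 25.8 and 25.4 FPKM and was not called (the authors' deposited table), and neither was SIR2. Whether the change of SIR4 differs from theirs was not tested.

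SIR4 (YDR227W, chromosome 4, 916599 to 920675 in the authors' assembly) lies inside a stretch in which its neighbours were lower by much the same amount. All 20 of the nearest tested models, 10 on each side, were called lower, with changes from -2.07 to -0.28 and a median of -0.52. SIR4 differed from that median by -0.013. Round the other 41 genes, windows built in the same way (11 models for RPD3 and 20 for each of the others) had medians from -0.10 (SAS3) to 0.090 (SET3) and at most 6 models called lower (SGF29). An unbroken run of 49 models below 0 holds SIR4, from GCD6 to DIN7 (chromosome 4, 883756 to 994562), and 45 of them were called lower. The run was delimited by the sign of these changes, so that count is a description. The low stretch was already known from these data when the windows were set, so the windows describe it as well. The median change of the run was -0.51, with quartiles of -0.57 and -0.40, and 18 of its models fell more than SIR4. The next genes were ADK1, adenylate kinase, at -0.62 before it and PCF11, a cleavage factor for messenger RNA, at -0.51 after it, both called (the authors' deposited table). The histone genes HTA1 and HTB1, which encode H2A and H2B, the substrates of some of these enzymes, start at -2.04 and -3.25 kb from the start of SIR4 and fell by 0.51 and 0.64 on the log2 scale of the authors' deposited table. Some histone genes outside the stretch, picked out after their values were seen, were called lower too. HTA2 and HTB2 on chromosome 2 fell by 0.29 and 0.32 in log2, and a histone H4 and a histone H3 model on that chromosome fell by 0.51 and 0.27 (the authors' deposited table). Others were not called, namely an H3 and an H4 model on chromosome 14 (0.0043 and -0.16) and HTZ1 on chromosome 15 (-0.15). Histone genes have near-identical copies, so the split of reads among them is uncertain. The part of the stretch in the value of SIR4 was not tested.

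**Figure D3:**
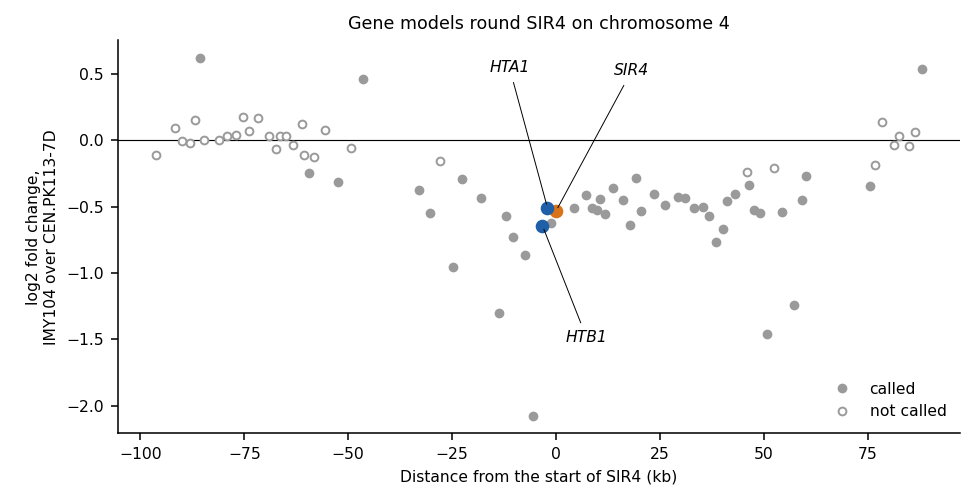
log2 fold change of each tested gene model within 40 models of SIR4 on chromosome 4, against the distance of its start from that of SIR4 in kb; filled points are called at the authors' q under 0.05, with SIR4 in orange and HTA1 and HTB1 in blue. Most points round SIR4 lie near its -0.53, with the lowest, CRF1, at -2.07. Most of those at both ends of the range lie round 0, with UPS3 at 0.62 and CCC2 at 0.54.

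The run holds none of the other genes described here. Chromosome 4 carries 8 of the 42, and the 7 outside the stretch were not called (the authors' deposited table). HST4, at -75.2 kb from SIR4, had 0.17 and HDA2, at 135 kb, had 0.22 on the log2 scale, both above 0 by the authors' deposited table. Without SIR4, 2 of 41 genes were called (4.88%, against 22.6% of all models), both higher. The start of SIR4 is printed as the single fall, from R64, chrIV:917321-917620, plus strand, 5′ to 3′, with capitals on the start codon and on motif matches.
SIR4: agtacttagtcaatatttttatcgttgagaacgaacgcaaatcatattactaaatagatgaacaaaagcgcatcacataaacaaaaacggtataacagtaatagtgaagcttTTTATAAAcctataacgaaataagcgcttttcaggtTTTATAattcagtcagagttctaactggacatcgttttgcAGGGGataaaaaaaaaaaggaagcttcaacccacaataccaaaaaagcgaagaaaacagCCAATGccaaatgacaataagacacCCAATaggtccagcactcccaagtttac

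Set side by side, the acetyltransferase and deacetylase groups both had medians close to 0. The 23 acetyltransferase genes had a median log2 change of -0.040, 1 called higher, none lower by Cuffdiff, and quartiles of -0.11 and 0.031. The 19 deacetylase and sirtuin genes had a median of -0.017, 1 called higher, 1 lower and quartiles of -0.062 and 0.057. Over all genes tested the median was 0.0082. Called genes made up 4.35% of the acetyltransferase group and 10.5% of the deacetylase group, against 22.6% of all models. Below 0 were 15 of the 23 and 12 of the 19, against 2551 of all 5347 genes tested. These genes are not replicates of a condition, and the difference between the groups was not tested. The median acetyltransferase gene had 59.8 FPKM in the reference and the median deacetylase gene 33.1, both under the 83.4 FPKM of all genes, and 33 of the 42 genes lay below the middle of all genes by mean level.

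**Figure D4:**
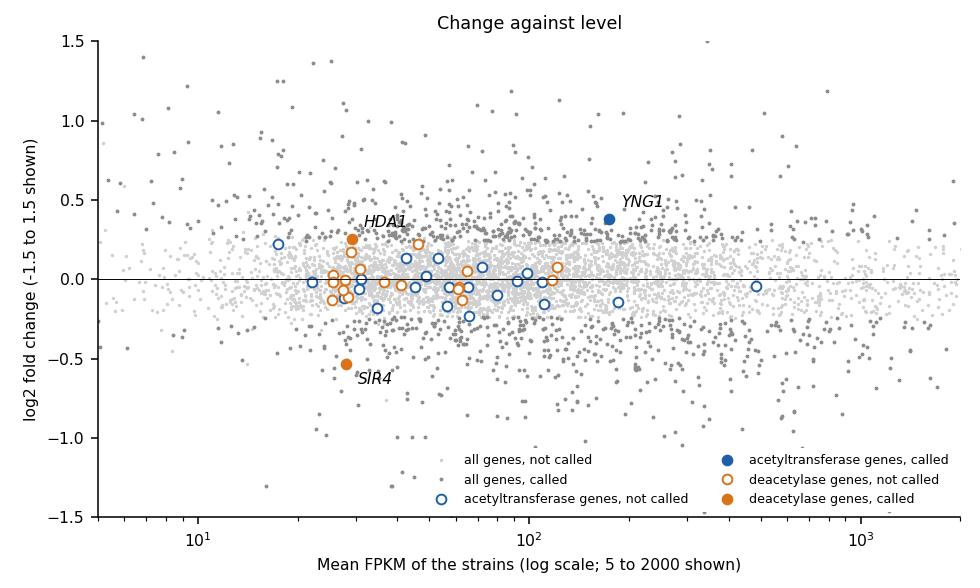
log2 fold change against mean FPKM of the strains (log axis) for all genes tested (grey, called ones darker) and for acetyltransferase (blue) and deacetylase (orange) genes, filled where called; the axes leave out genes beyond the ranges shown. SIR4, YNG1 and HDA1 are filled, at -0.53, 0.38 and 0.25, and the open circles lie between -0.23 and 0.22.

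How small a change the authors' test could call can be read from other genes of like level. Among the 200 models nearest to each gene in mean FPKM, the smallest change that was called ran from 0.23 to 0.26 in absolute log2, and 12.5% to 28.5% of them were called. The largest change left uncalled among them ran from 0.23, round SET3, to 0.76, round HDA3, so larger changes could be missed as well. Of the 39 genes not called, the largest absolute change was 0.23, that of SAS2. For the 17 of these with a p under 0.5, the standard error implied by the authors' p was 0.092 to 0.11. These 39 genes are not shown to be equal between strains.

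Other subunits and partners of the same complexes were looked at as a second list. Of 49 listed, 48 were measured (VPS75 is not analysed here), and 2 rose and 5 fell, which is 14.6% against the 22.6% of all models, with a median log2 fold change of 0.025. In SAGA and ADA, TAF9, a TFIID and SAGA subunit, rose from 372 to 447 FPKM (0.26 in log2), while AHC2 of the ADA complex fell from 1198 to 977 FPKM (-0.29), as the authors' deposited table has it. ASF1, the histone chaperone that presents H3 to Rtt109, rose from 64.1 to 79.5 FPKM (0.31 in log2, Cuffdiff q = 0.0105) by the authors' deposited table, next to an RTT109 value that was not called. Of the 10 further Rpd3 partners, UME6, the factor that recruits Rpd3 to meiotic genes, fell from 32.8 to 26.4 FPKM (-0.32, Cuffdiff q = 0.0078) by the authors' deposited table. CPR1, a very abundant cyclophilin that also joins the Set3 complex, fell from 5911 to 3964 FPKM (-0.58) by the authors' deposited table. The other 2 called, 1 of SAGA and ADA and 1 of Rpd3, fell by less. TAF9, AHC2 and CPR1 were also called from the normal reading of the statistic. ASF1 (q = 0.1262), UME6 (q = 0.1796) and the other 2 were not. At q under 0.01, UME6 and CPR1 were called and ASF1 was not. None of the 6 NuA4, 5 Elongator and 6 Sir, RENT and Sum1 partners measured was called by Cuffdiff, with 0, 1 and 1 of them at an unadjusted p under 0.05 and none called from the normal reading of the statistic.

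Genes that make or recycle NAD, which sirtuins consume, formed a further list. Of 16 measured, 4 rose and 1 fell, or 31.3% against 22.6% of all models, with a median log2 fold change of 0.15. URH1, which splits nicotinamide riboside, rose from 48.9 to 65.6 FPKM (0.43 in log2) per the authors' deposited table. BNA1 and BNA4, enzymes of NAD synthesis from tryptophan, rose by 0.30 and 0.26, and the nicotinamide riboside kinase NRK1 by 0.26 on the log2 scale of the authors' deposited table. BNA4 (q = 0.246) and NRK1 (q = 0.153) were not called from the normal reading of the statistic. PNC1, the nicotinamidase that removes an inhibitor of sirtuins, fell from 1173 to 847 FPKM (-0.47 in log2, Cuffdiff q = 0.00047, authors' deposited table). Among 11 genes of acetyl-lysine readers with bromodomains or YEATS domains, none was called by Cuffdiff, none had an unadjusted p under 0.05 and none was called from the normal reading of the statistic. Their changes ran from -0.18 to 0.17 in log2, with a median of -0.050. TAF14, YAF9 and SAS5 stand in both this list and that of the partners.

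**Figure D5:**
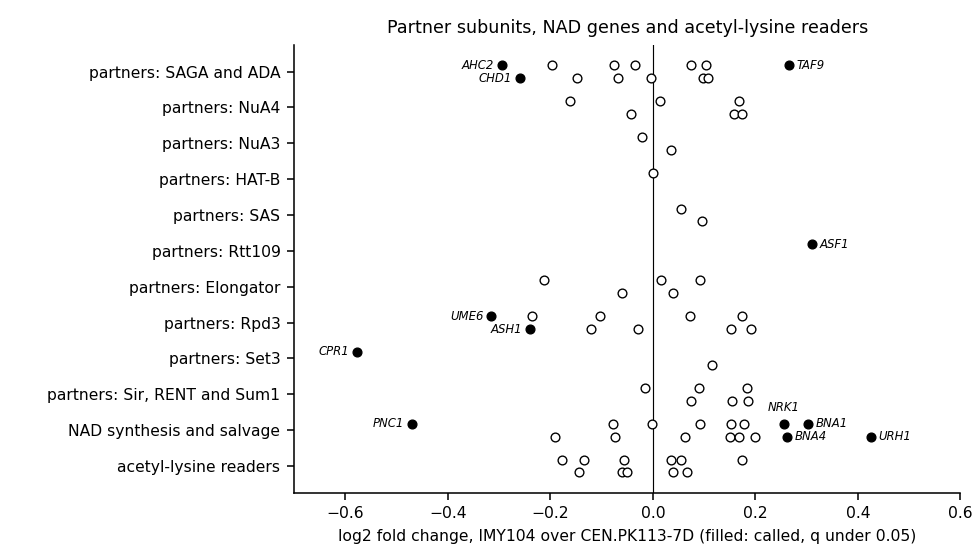
log2 ratio of IMY104 to CEN.PK113-7D for partner subunits by complex, NAD genes and acetyl-lysine readers; each circle is a gene, filled and named where called at the authors' q under 0.05. Called genes lie on both sides of 0, from CPR1 at -0.58 to URH1 at 0.43, and the reader row holds no filled circle.

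The windows of 250 bases before to 50 after the coding start of the 42 genes were searched on both strands, in R64, for 6 short motifs. The TATA box letters TATAAA were in 13 of 42 windows (31.0%), against 45.2% of 6001 windows of protein-coding genes. The CCAAT box, bound by the Hap complex of respiratory genes, was in 20 (47.6%, against 43.3%), and the stress element AGGGG, bound by Msn2 and Msn4, in 7 (16.7%, against 21.6%). The Reb1 site TTACCCG was in 5 windows (11.9%, against 7.08%), the E-box CACGTG, bound by Cbf1 and Pho4, in 4 (9.52%, against 2.92%), and the Gcn4 site TGACTC in 2 (4.76%, against 7.98%). In the printed windows, YNG1 holds the E-box with its first base at -153 from the start codon and a CCAAT box on the other strand at -108. SIR4 holds 3 matches to the TATA box, at -138, -136 and -102, of which the first pair overlap, a stress element at -62 and CCAAT at -3, where it runs into the start codon, and at 22. Such matches describe the letters and are not shown to be bound.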

How the data were processed

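The authors' deposited table was used as it stands. Per the submitters' processing notes Cuffdiff, Cufflinks, SAMtools 0.1.7-r510, BWA 0.5.9-r16 and CASAVA 1.8.2 were used, with no roles stated; the name of the build is not given in the sources used here. For each strain the authors pooled its 3 libraries into 1 FPKM level, per the file headers, and deposited a log2 fold change (IMY104 relative to the reference), a signed fold change and a test statistic (both scores in the table), a p-value and a q-value for 5479 gene models, of which 5463 were tested. Model names show JIGSAW predictions on a CEN.PK assembly; coordinates are that assembly's unless R64 is named. Strand is marked by no step in the labels' protocols, and no model of the genes described overlaps another.

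Each log2 value deposited was equal, within 0.0001, to the one computed from both FPKM levels, and Benjamini-Hochberg values recomputed over all tested models equalled the deposited q-values within 1e-06. A test across libraries had been planned for values per library; the authors' test was used instead. The smallest p, 5e-05, is shared by 581 models. Standard errors were obtained as the absolute log2 fold change over the normal deviate of the authors' p, and intervals cover 95%. The median ratio of that deviate to the deposited statistic was 1.44 over 3288 models with p above its smallest value and under 0.5, and in 345 of them the statistic was the larger. For HDA2, SPT8 and SAS2, intervals built from the statistic would be wider and hold 0. Read as a normal deviate, it gave them a p of 0.131, 0.199 and 0.0833 in turn.

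The genes, lists, windows and motifs were chosen with earlier results of these data known. Every gene of the list is accounted for, genes of the other lists are named where called, at most 5 a list by size of change, and motifs and neighbours were looked at after the values. Symbols came from the R64 annotation. Alternatives were another model per gene, q under 0.01, a filter of 10 FPKM, a pseudocount of 5 FPKM, quantile normalization and the normal reading of the statistic. Python 3.11.15, pandas 2.3.3, numpy 2.4.6 and scipy 1.17.1 were used, and the adjustment was tested on simulated data.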

Additional observations from a re-analysis of the deposited data

How the results depend on the processing

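The count of 3 called genes was 2 at q under 0.01 and 2 with the statistic read as a normal deviate, HDA1 being the one lost in both, and 3 with another model per gene, after the filter on low values and with genes found by name alone. Over all models the counts were 1235 at q under 0.05, 877 at q under 0.01, 1196 after the filter on low values and 814 from the normal reading. Against 7 partner genes called, 2 were at q under 0.01 and 4 under the normal reading, 3 of the 7 and 1 other, SGF11, named after its value was seen. Against 5 NAD genes called, 3 and 3 were. Some sizes in these lists, picked out after their values were seen, moved under quantile normalization. CPR1, AHC2 and PNC1 went from -0.58, -0.29 and -0.47 in log2 to -0.36, -0.21 and -0.37. TAF9 and BNA1 went from 0.26 and 0.30 to 0.32 and 0.39. The acetyltransferase median of -0.040 became -0.051 under quantile normalization and -0.028 both with EAF3 counted as a deacetylase and with genes found by name alone. The deacetylase median of -0.017 became -0.015 with the pseudocount, -0.023 under quantile normalization and -0.0051 without SIR3 and SIR4. The median round SIR4, -0.52, became -0.51 with the pseudocount and -0.48 under quantile normalization. SIR4, YNG1 and HDA1 kept their directions under both scalings. The normal reading of the statistic and the search by name alone were added after the data were seen. Leaving out a culture was not run, since the table holds 1 combined value a strain. No paired analysis was possible because the columns carry no replicate.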
